A study of Solanum lycopersicum with 36 samples.

Results

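The genes described here were chosen by their levels in wild type tomato leaves. They kept their level for the first 3 h of a time course and were far lower at 24 h. They are 150 of the 29285 genes in the deposited table. With L as log2 of a group mean plus 1, a gene was eligible when L at 3 h lay within 0.5 of L at 0 h in both wild type sets and its mean at 0 h was at least 50 normalised reads in both. That left 7533 genes. They were ranked by the smaller, over both sets, of L at 0 h minus L at 24 h, and the 150 highest were taken.

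Poly(A) RNA was sequenced from the third and the fourth leaves of tomato (Solanum lycopersicum) of the dwarf cultivar Micro-Tom, about a month old. In the first of 2 independent experiments the line SGT2ox stood beside its own wild type, and in the second the line SGT1ami stood beside another wild type set. Each genotype was sampled at 0, 3 and 24 h with 3 libraries, which the labels call biologically independent, so there were 12 groups and 36 libraries. SGT1 and SGT2 are sterol glycosyltransferases, enzymes that add a sugar to membrane sterols, and the suffixes are read here as overexpression and as an artificial microRNA. The sources used here do not give the promoter of either transgene or the number of plant lines behind a label. The protocol placed part of the plants in a chamber at 4°C and kept the others under control conditions, but no library carries a temperature in its labels and no label names a control for the hours 3 and 24. A difference from 0 h is therefore called a change with time.

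Transcript levels in a leaf follow the balance of synthesis and decay. In plants moved to the cold, transcription factors of the CBF family are known to be induced early, while many genes of growth and photosynthesis change later. Many leaf transcripts also cycle with the hour of the day, and samples taken 24 h apart share that hour while a 3 h sample does not. The files pair no gene identifier with a name, and none of the identifiers matched the reference gene table (0 matches). Genes are therefore given by identifier, no role or sequence is given for them, and leaf markers could not be looked up. In these bulk samples fewer cells of a type and less RNA per cell cannot be told apart.

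The libraries held 36602841 to 43742623 reads. The label of 3 libraries, those labelled SGT1ami at 24 h, is in doubt. Of 93 genes that were called and at least 4-fold apart in the same direction between SGT2ox and its wild type at 0 h and at 3 h, 61 were so at 24 h too. Of 87 such genes between SGT1ami and its wild type, 1 was so at 24 h. These 3 libraries are referred to by their label, and what rests on them is given apart from the values of SGT2ox. No change from 0 h to 24 h can be given for SGT1ami without them.

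The wild type values chose the genes and are given as a description, with no test. Their change from 0 h to 24 h on the log2(mean + 1) scale ranged between -6.18 and -1.91 in the wild type of SGT2ox (median -2.34), and between -6.60 and -1.90 in that of SGT1ami (median -2.75). These medians are a 5.07-fold and a 6.72-fold lower level. A level at least 4-fold lower was found for 129 and 141 of the 150 genes, and one at least 16-fold lower for 8 and 11. The rule set no gap between members and other genes, since the score was 1.9051 for the gene at rank 149, 1.9036 at rank 150, 1.9033 at rank 151 and 1.8982 at rank 152.

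Solyc07g150120 had the highest score. The wild type of SGT2ox held 243.4, 216.9 and 223.4 normalised reads of it at 0 h, then 263.5, 197.1 and 248.1 at 3 h, and 2.15, 0 and 4.33 at 24 h. In the wild type of SGT1ami the values were 97.6, 93.1 and 97.4 at 0 h, 104.2, 90.0 and 105.0 at 3 h, and 0 in all 3 libraries at 24 h. Neither set had an overlap between 24 h and the earlier times, and at 24 h this gene was close to silent.

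Solyc05g009270 came next. In the wild type of SGT2ox its 0 h libraries held 496.6, 538.2 and 488.8, its 3 h libraries 698.6, 665.8 and 710.9, and its 24 h libraries 4.3, 10.4 and 15.2. In that of SGT1ami it held 514.7, 471.2 and 533.4, then 607.1, 671.6 and 572.2, then 10.1, 5.0 and 5.14. Here the 3 h libraries were the highest in both sets, within the limit that the rule allows.

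**Figure D1:**
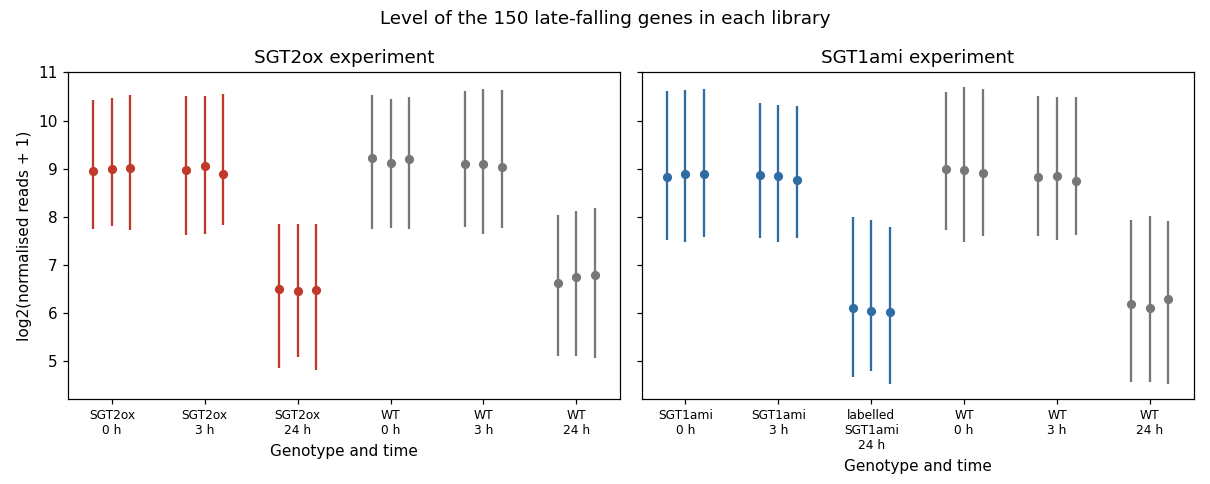
Levels of the 150 late-falling genes in each of the 36 libraries, as log2(normalised reads + 1); points are the median over the genes and bars run between the quartiles, with each line left of its wild type and times from 0 to 24 h. In every genotype the 24 h libraries lie below those of 0 h and 3 h, with medians of 86.6 to 89.8 normalised reads in SGT2ox at 24 h against 491.9 to 515.9 at 0 h.

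The genes covered a wide range of read counts. Group means at 0 h ran from 51.2 to 137218 in the wild type of SGT2ox and from 50.3 to 168166 in that of SGT1ami. These counts are not divided by gene length, so they do not rank the genes by expression. At 24 h 16 and 14 of the genes had a mean under 10 in these wild types, where none had at 0 h. Together the 150 genes held 0.296% ± 0.00358 of the summed values in SGT2ox at 24 h, against 2.20% ± 0.0289 at 0 h. They held 0.218% ± 0.00227 in the libraries labelled SGT1ami at 24 h, against 1.96% ± 0.0355 in SGT1ami at 0 h (mean ± SD, n = 3 each). At 3 h the share was 1.52% ± 0.0149 in SGT2ox and 1.67% ± 0.012 in SGT1ami. The 5 genes with the highest means carried 67.1% to 73.7% of the summed values of the set in each of the 12 groups, so these shares mostly follow a few genes.

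The libraries of both lines took no part in the choice and test whether the pattern is found there. In SGT2ox all 150 genes fell at 24 h relative to 0 h, by limma with Benjamini-Hochberg adjustment over 22399 tested genes at 0.05, where 40.8% of all tested genes were called lower and 40.3% higher. A fall of at least 2-fold was found for 149 of them, against 20.2% of all tested genes. The median change of the set was -2.61 on the log2(value + 1) scale and that of all tested genes -0.02. In each of the 150 genes the 3 libraries of 24 h lay below the 3 libraries of 0 h, which holds for 41.2% of all tested genes, while 41.1% lay wholly above. Of the other 7383 eligible genes, which were as steady at 3 h in the wild types, 42.7% were called lower in SGT2ox and 39.3% higher.

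The libraries labelled SGT1ami at 24 h gave the same count. All 150 genes were called lower than in SGT1ami at 0 h (limma, 22286 genes tested), where 40.1% of all tested genes were and 42.7% were higher. All 150 differed at least 2-fold, against 20.2% of all tested genes. The median change was -2.72 for the set and 0.02 for all tested genes. In each gene the 3 libraries again lay wholly below those of 0 h, which holds for 40.5% of all tested genes, while 43% lay wholly above.

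The largest falls in SGT2ox were those of Solyc07g053450 and Solyc05g009270. Solyc07g053450 held 0, 0 and 2.17 normalised reads in SGT2ox at 24 h, against 97.9, 107.1 and 88.7 at 0 h. Its log2 change was -6.07 (SE 0.50, adjusted p = 1.5e-11, limma). Solyc05g009270 held 6.38, 13.8 and 6.51 in SGT2ox at 24 h, against 462.0, 478.1 and 512.8 at 0 h, a change of -5.69 (SE 0.27, adjusted p = 8.6e-17, limma). In the libraries labelled SGT1ami at 24 h the largest falls were those of Solyc07g150120 (-6.19, SE 0.36, adjusted p = 2.6e-15, limma) and again Solyc05g009270 (-5.88, SE 0.32, adjusted p = 5.2e-16, limma). Solyc07g150120 stood at 2.42, 0 and 0 there, against 112.7, 98.9 and 117.1 in SGT1ami at 0 h. Changes of genes this low at 24 h rest on a handful of reads and on the added 1.

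A single gene fell less than 2-fold in SGT2ox. It was Solyc05g024120, singled out after its values were seen. SGT2ox held 84.0, 88.2 and 92.2 at 24 h, against 164.7, 162.7 and 145.2 at 0 h, a change of -0.83 (SE 0.23, adjusted p = 0.0016, limma). Its wild type held for this gene 10.7, 8.34 and 19.5 at 24 h and 63.9, 57.5 and 53.4 at 0 h, so SGT2ox lay above its wild type in every library at both times. SGT1ami also lay above its wild type at 0 h, with 149.0, 163.2 and 180.5 against 73.2, 90.8 and 95.8. The same held in every library at 3 h, while the libraries labelled SGT1ami at 24 h overlapped with those of the wild type. The smallest fall in the libraries labelled SGT1ami was -1.60, that of Solyc08g081120 (SE 0.18, adjusted p = 6.5e-09, limma).

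**Figure D2:**
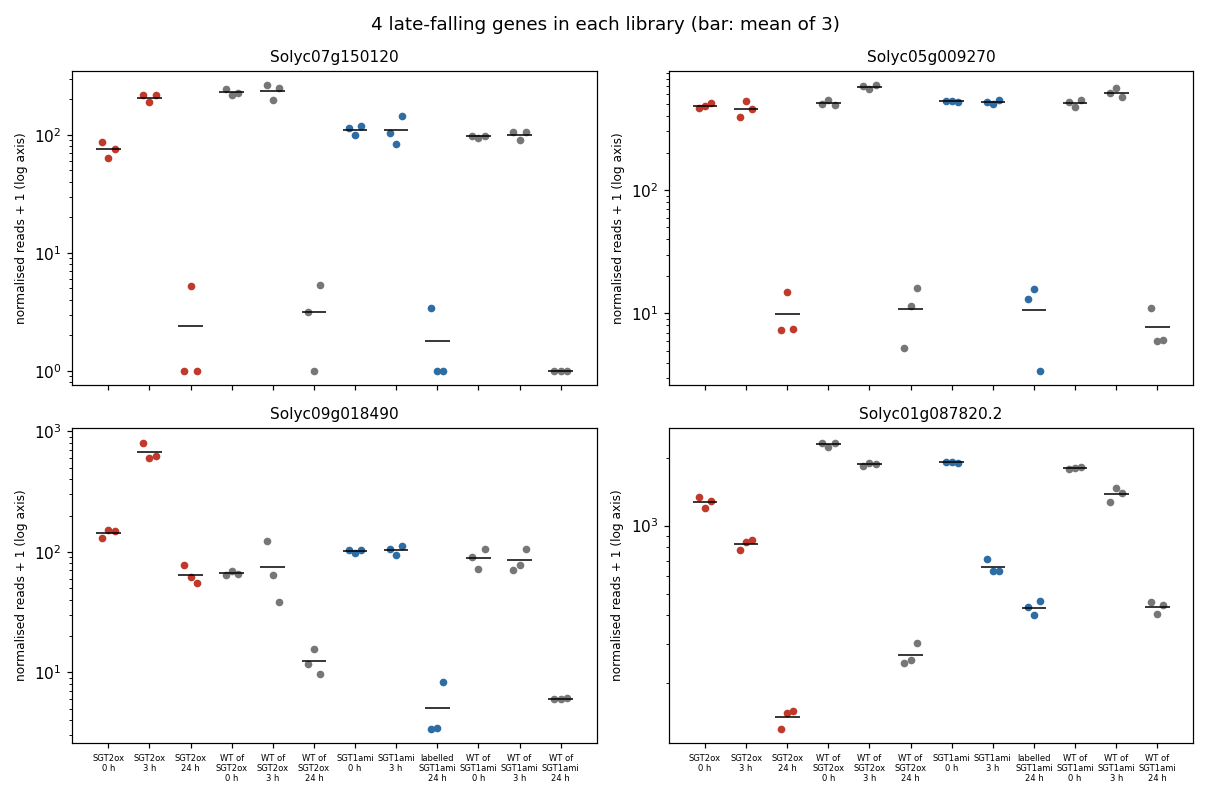
Normalised reads + 1 on a log axis for 4 late-falling genes in each library, with lines left of their wild types; points are libraries and bars the means of 3. Solyc07g150120 and Solyc05g009270 are near 0 at 24 h in all 4 genotypes, and Solyc09g018490 has its highest values in SGT2ox at 3 h (597.8 to 804.2). Solyc01g087820.2 is lower at 3 h than at 0 h in all 4 genotypes, by most in SGT1ami.

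How flat were the genes at 3 h in the lines, where the rule did not ask for it? In SGT2ox 114 of the 150 genes lay within the limit of 0.5, 16 lay above it and 20 below it. In SGT1ami 119 lay within it, 9 above and 22 below. In SGT2ox 27 genes rose at 3 h and 45 fell, against 33.2% and 31.6% of all tested genes, and 78 did not pass the test (limma). At least 2-fold rises numbered 5 and such falls 0, against 11.2% and 11.1% of all tested genes. The other 7383 eligible genes, also flat at 3 h in the wild types, had 15 such rises and 27 such falls in SGT2ox. The 5 rises are a larger share of the 150 than these 15 are of the 7383. In SGT1ami 21 of the 150 genes rose and 47 fell, against 30.5% and 31.7% of all tested genes, and 82 did not pass. At least 2-fold rises numbered 0 and falls 1 there, against 10% and 5.14%. The other eligible genes had 26 such rises and 10 such falls in SGT1ami. Without the libraries labelled SGT1ami at 24 h in the fit, a setting added once the data had been seen, 26 of the 150 genes rose and 52 fell. No share of all tested genes is given for that fit. The median change at 3 h was -0.08 in SGT2ox and -0.09 in SGT1ami.

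**Figure D3:**
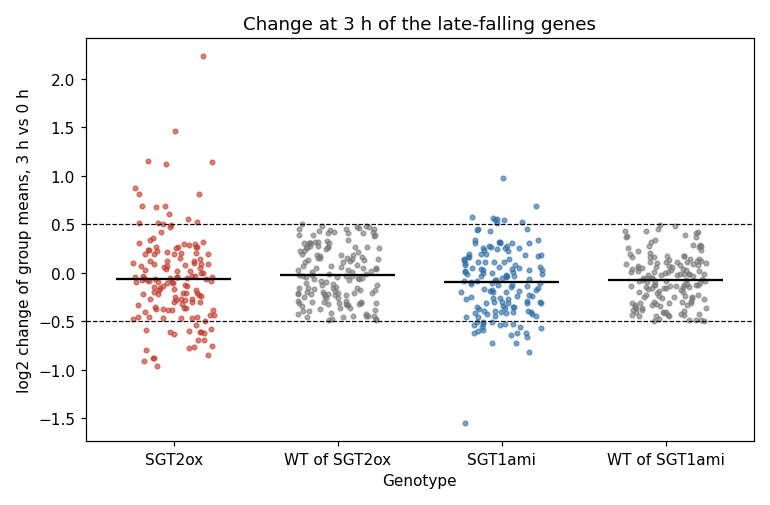
Change of group means from 0 h to 3 h on the log2(mean + 1) scale for the 150 late-falling genes in each genotype, with a bar at the median and dashed lines at the limits of 0.5 that the rule set for the wild types. Of the 150 genes, 114 lie within the limits in SGT2ox and 119 in SGT1ami, and the highest point in SGT2ox is at 2.23.

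These splits depend on scaling. When reads were scaled by library totals and not by the authors' size factors, the median of all tested genes moved to -0.33 at 3 h in SGT2ox and to -0.22 in SGT1ami. The calls then became 11 rises and 87 falls in SGT2ox and 10 rises and 68 falls in SGT1ami. Relative to the median of all genes the set stood at -0.08 and -0.07 with either scaling.

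The largest 3 h rise in SGT2ox was that of Solyc09g018490, which stood at 129.1, 150.1 and 148.6 at 0 h, 804.2, 597.8 and 621.1 at 3 h, and 76.5, 60.6 and 54.2 at 24 h. Its rise was 2.22 (SE 0.27, adjusted p = 6.9e-08, limma). In the wild type of SGT2ox the 3 h libraries held 122.1, 62.97 and 37.0, against 63.1, 68.0 and 64.8 at 0 h, so there the times overlapped. Solyc07g150120 came next, with 214.9, 187.5 and 216.0 in SGT2ox at 3 h, against 85.8, 62.4 and 74.8 at 0 h. Its 0 h libraries in SGT2ox all lay below those of the wild type, and its rise was 1.47 (SE 0.48, adjusted p = 0.0098, limma).

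The largest 3 h falls in SGT2ox were under 2-fold. Solyc04g077380.2 held 131.7, 121.9 and 125.6 at 3 h, against 260.9, 221.8 and 255.5 at 0 h (-0.95, SE 0.21, adjusted p = 0.00022, limma). Solyc08g066740 held 283.1, 263.7 and 265.4 at 3 h, against 521.8, 484.0 and 521.5 at 0 h (-0.91, SE 0.18, adjusted p = 5.8e-05, limma). Both fell further by 24 h in SGT2ox, with changes from 0 h of -4.20 and -4.08. In the wild type of SGT2ox both were also lower at 3 h than at 0 h in every library. Their changes there were -0.31 and -0.48 on the log2(mean + 1) scale, within the limit that the rule allows. In the wild type of SGT1ami these changes were 0.43 and -0.49, and in SGT1ami 0.56 and -0.03. Solyc04g077380.2 was thus higher at 3 h in the second experiment.

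In SGT1ami Solyc12g009930 rose most at 3 h, with 3641, 3520 and 3239 at 3 h, against 1745, 1795 and 1721 at 0 h (0.98, SE 0.08, adjusted p = 8.6e-12, limma). Solyc12g009930 was also higher in SGT2ox at 3 h, with 4286, 4413 and 4688 against 2051, 1977 and 2003 at 0 h (1.15, SE 0.07, adjusted p = 1.5e-13, limma). Solyc11g006590 came next in SGT1ami, with 4147, 4155 and 4007 at 3 h, against 2548, 2503 and 2577 at 0 h (0.69, SE 0.06, adjusted p = 1.5e-11, limma). In each of these lines both genes stood higher at 3 h than at 0 h in every library. They were far lower in SGT2ox at 24 h and in the libraries labelled SGT1ami at 24 h. Solyc11g006590 was also higher at 3 h in the wild types of SGT2ox and SGT1ami, by 0.26 and 0.38 on the log2(mean + 1) scale. For Solyc12g009930 these wild type changes were 0.16 and -0.09. At 0 h its libraries lay below those of the wild type in both lines. The wild type of SGT2ox held 2684 to 2833 of it then, and that of SGT1ami 2895 to 2960.

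Solyc01g087820.2 fell most at 3 h in SGT1ami, with 706.8, 627.4 and 629.3 at 3 h, against 1915, 1915 and 1896 at 0 h (-1.54, SE 0.06, adjusted p = 2.9e-18, limma). In the libraries labelled SGT1ami at 24 h it held 433.4, 400.7 and 462.1, so most of its fall had come by 3 h, and between 3 h and 24 h the change was -0.60 (limma, adjusted p = 1.4e-09). In the wild type of SGT1ami the 3 h libraries held 1266, 1465 and 1393, against 1771, 1802 and 1813 at 0 h. Solyc02g091360.1 held 69.5, 59.8 and 49.4 in SGT1ami at 3 h, against 115.9, 94.9 and 105.7 at 0 h. It passed narrowly (-0.82, SE 0.36, adjusted p = 0.048, limma), and its call ended when any of the 6 libraries compared was left out (adjusted p = 0.052 to 0.15, limma).

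Between 3 h and 24 h the fall was as general as from 0 h. In SGT2ox all 150 genes were lower at 24 h than at 3 h, where 41.2% of all tested genes were and 40.1% were higher. All 150 fell at least 2-fold, against 21.6% of all tested genes (limma). The median change was -2.60. Solyc07g150120 (-6.89, SE 0.48, adjusted p = 5.4e-13, limma) and Solyc07g053450 (-6.11, SE 0.50, adjusted p = 1.2e-11, limma) fell most. In the libraries labelled SGT1ami at 24 h all 150 were lower than in SGT1ami at 3 h, where 40.1% of all tested genes were and 42.2% were higher. Of these 149 differed at least 2-fold, against 20.7% of all tested genes. The exception was Solyc01g087820.2, described above, and Solyc07g150120 (-6.16) and Solyc05g009270 (-5.87) changed most.

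Did the fall differ in depth between the lines? A fit of all 36 libraries compared the change from 0 h to 24 h in SGT2ox with that between SGT1ami and the libraries labelled SGT1ami at 24 h. The line, the experiment and the doubtful label cannot be told apart in it. The wild types of the 2 experiments differed too, with median changes of -2.34 and -2.75 on the log2(mean + 1) scale. The difference was called for 74 of the 150 genes. Of these, 45 had the less negative change in SGT2ox and 29 the more negative one (limma), against 25.6% and 26.2% of all 22945 tested genes. A difference of at least 2-fold was called for 13 and 6 genes, against 8.5% and 10.2%. Of the other 7383 eligible genes it was called for 196 and 240, both a smaller share than in the 150. With library totals the 45 and 29 calls became 78 and 15, and the median of all genes moved to 0.32. The median difference of the set was 0.15, and relative to the median of all genes it was 0.15 and 0.14 with the deposited and the library total scaling. Across the 150 genes, which are not independent, the changes in both lines had a Pearson r of 0.65 and a Spearman rho of 0.59.

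Solyc09g018490 had the largest difference, 3.30 (SE 0.41, adjusted p = 6.3e-09, limma). It stood at 2.42, 2.44 and 7.26 in the libraries labelled SGT1ami at 24 h, against 101.7, 97.3 and 102.5 in SGT1ami at 0 h, while SGT2ox kept 54.2 to 76.5 at 24 h. Solyc04g074700 followed with 2.29 (SE 0.21, adjusted p = 4.2e-12, limma). It held 135.0, 96.7 and 119.3 in SGT2ox at 24 h and 273.0, 231.9 and 287.7 at 0 h. The libraries labelled SGT1ami at 24 h held 33.8, 41.5 and 58.1, set beside 520.2, 494.4 and 460.3 in SGT1ami at 0 h. From 0 h to 24 h the mean of Solyc09g018490 went from 65.3 to 11.3 in the wild type of SGT2ox. In that of SGT1ami it went from 88.1 to 5.05. The means of Solyc04g074700 went from 361.6 to 81.2 and from 526.2 to 56.1. Both genes thus fell less in the wild type of SGT2ox as well, which was not tested.

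The opposite difference was largest for Solyc08g068480.1 at -2.10 (SE 0.45, adjusted p = 0.00013, limma). It held 5.32, 3.19 and 6.51 in SGT2ox at 24 h and 147.3, 206.6 and 164.3 at 0 h, and 14.5, 12.2 and 13.3 in the libraries labelled SGT1ami at 24 h, set beside 90.7, 102.9 and 99.2 in SGT1ami at 0 h. Solyc04g064610 followed at -1.44 (SE 0.40, adjusted p = 0.0026, limma), with 6.38, 22.3 and 6.51 in SGT2ox at 24 h and 111.8, 122.3 and 134.7 at 0 h. The libraries labelled SGT1ami at 24 h held 16.9, 19.6 and 16.9 of it, against 92.2, 61.1 and 82.1 in SGT1ami at 0 h. From 0 h to 24 h the mean of Solyc08g068480.1 went from 119.5 to 3.93 in the wild type of SGT2ox. In that of SGT1ami it went from 105.8 to 11.7. The means of Solyc04g064610 went from 110 to 26.3 and from 115.4 to 22.4. Solyc08g068480.1 thus fell more in the wild type of SGT2ox too, and Solyc04g064610 did not.

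**Figure D4:**
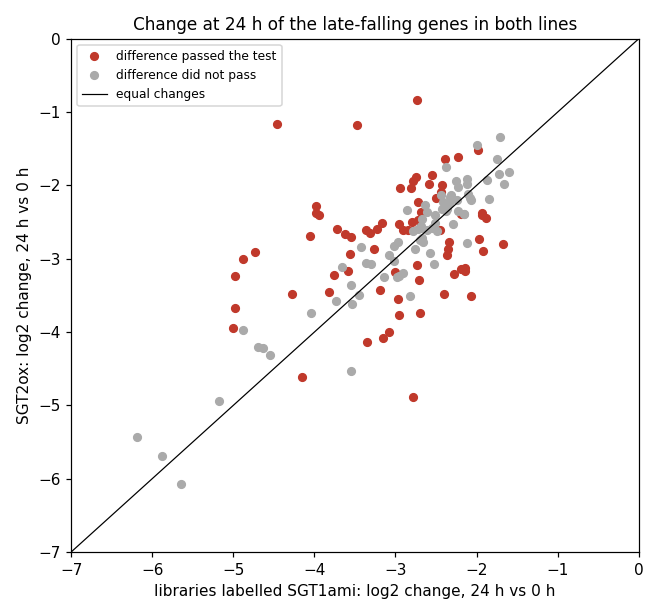
Change from 0 h to 24 h on the log2(value + 1) scale for the 150 late-falling genes, in SGT2ox (vertical axis) against the libraries labelled SGT1ami (horizontal axis), with a line of equal changes; red points are the 74 genes whose difference passed the test. All points lie below 0 on both axes, and Solyc09g018490 is the point farthest above the line.

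At 3 h the change from 0 h differed between the lines for 55 of the 150 genes, 28 with the higher and 27 with the lower change in SGT2ox, against 27.7% and 23.3% of all tested genes (limma). At least 2-fold differences were called for 4 and 3 genes, against 5.92% and 10.2%. Of the other 7383 eligible genes 33 and 92 had such a call, both a smaller share than in the 150. The split of 28 and 27 depends on scaling, with 21 and 32 under TMM and 12 and 41 under library totals. Without the libraries labelled SGT1ami at 24 h it was 32 and 29. When only the groups compared were fitted, 85 genes were called, 47 higher and 38 lower. The shares of all tested genes under these other settings are not given, so nothing further is read from these counts. The median difference of the set was 0.09, and -0.05 with library totals, where the median of all genes was 0.04 and -0.10. Solyc09g018490 (2.19, adjusted p = 1.8e-05, limma) and Solyc07g150120 (1.501, adjusted p = 0.049, limma) had the largest positive differences. The second of these calls ended in 11 of the 12 fits that each left out a library (adjusted p = 0.036 to 0.11 over the 12, limma). The largest negative differences were those of Solyc04g077380.2 (-1.51, adjusted p = 0.025, limma) and Solyc08g068490 (-1.23, adjusted p = 7.2e-07, limma). The call of Solyc04g077380.2 ended with no filter on low values (adjusted p = 0.053, limma). Its changes at 3 h were also opposite in the wild types of SGT2ox and SGT1ami, at -0.31 and 0.43 on the log2(mean + 1) scale. Solyc08g068490 stood at 633.2, 613.0 and 701.0 in SGT2ox at 3 h and 1075, 1132 and 1111 at 0 h, and at 697.5, 705.6 and 792.2 in SGT1ami at 3 h and 565.2, 512.1 and 521.3 at 0 h, so it fell in SGT2ox and rose in SGT1ami.

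Line and wild type are set side by side as a description, since the wild type libraries chose the genes. At 24 h 107 of the 150 genes had a lower mean in SGT2ox than in its wild type, with a median difference of -0.19 on the log2(mean + 1) scale. The 3 libraries of SGT2ox lay below all 3 of its wild type for 54 genes and above them for 10, against 21.6% and 22.2% of all tested genes. At 0 h the median difference was -0.02, with 41 genes wholly below and 41 wholly above, against 20.2% and 21.5%. In the libraries labelled SGT1ami at 24 h 95 of the 150 had a lower mean than in the wild type, with a median difference of -0.06. There 28 were wholly below and 6 wholly above, against 22.3% and 12.4% of all tested genes. In SGT1ami at 0 h 39 were wholly below and 24 wholly above, against 16.7% and 19.1%. At 3 h 50 genes were wholly below and 16 wholly above in SGT2ox, against 18% and 13.5%, and 53 were below and 26 above in SGT1ami, against 20.9% and 20.6%. Nothing is read from these counts.

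To compare line and wild type with a test, the rule was applied to the wild type of the other experiment alone, which gave other sets of 150 genes. Of the 150 genes so chosen in the wild type of SGT1ami, 46 are among the late-falling genes above. In the wild type of SGT2ox 148 of them were lower at 24 h than at 0 h, against 39.6% of all tested genes, and none was higher, against 39.5%. At 3 h only 52 stayed within 0.5 of their 0 h level. At 24 h 79 were lower and 12 higher in SGT2ox than in its wild type (limma), against 17% and 15.1% of all tested genes. The change from 0 h to 24 h was more negative in SGT2ox than in wild type for 65 of them and less negative for 4, against 13.3% and 10% of all tested genes, with a median difference of -0.40. These comparisons were chosen with earlier results of these libraries known, so the counts are not independent evidence of a direction.

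Of the 150 genes chosen in the wild type of SGT2ox, 50 are among the late-falling genes and 149 were tested in the other experiment. In the wild type of SGT1ami 144 were lower at 24 h, against 39.8% of all tested genes, 2 were higher, against 42.6%, and 64 were within 0.5 at 3 h. At 24 h 30 were lower and 10 higher in the libraries labelled SGT1ami than in wild type, against 15.2% and 6.91% of all tested genes. These 40 calls became 21 with edgeR and 6 in a fit of the groups at 24 h alone, where the shares of all tested genes are not given. The change from 0 h to 24 h differed for 33 genes, 21 more negative in the labelled libraries and 12 less negative, against 15.4% and 8.11%. With library totals these splits were 19 and 13 at 24 h and 17 and 16 for the change. Whether the 2 lines differ in this respect was not tested.

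Which genes carry the label depends on the rule. Applied to the lines' own libraries in place of the wild types, the rule chose 65 of the same 150 genes, which is 43.3% of each list. The lists from each wild type alone shared 29 genes, 19.3% of each. In SGT2ox 102 of the 150 genes stayed within 0.5 at 3 h and were lower at 24 h by at least the score of rank 150, and in SGT1ami with the libraries labelled so at 24 h 111 did. With library totals 67 of the 150 genes would have been chosen.

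The identifiers give some positions, since the 2 digits after Solyc name the chromosome in tomato gene identifiers. Members were found on all 12 chromosomes, from 6 on chromosome 9 (1.05% of its eligible genes) to 20 on chromosome 1 (2.03%). Chromosomes 5 and 7 had the highest share, at 2.75% each. Of the 150 genes, 17 stood next to another member in the order of the identifiers in the table, in 8 runs. No such count was made for the other eligible genes, so no clustering is read from it. The longest run was of 3 genes, Solyc01g087760.2, Solyc01g087770 and Solyc01g087780.2, named after their values were seen. In SGT2ox they held 3.19, 0 and 2.17, then 18.1, 15.9 and 15.2, then 345.5, 348.6 and 405.6 at 24 h. At 0 h they held 67.6, 60.7 and 90.4, then 292.1, 322.1 and 352.0, then 4093, 3756 and 4025 there. Their log2 changes lay between -4.94 and -3.43 in SGT2ox and between -5.18 and -3.19 in the libraries labelled SGT1ami at 24 h. Solyc08g068480.1 and Solyc08g068490 form another run. Neighbours with near-identical sequence can share reads, which was not tested.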

How the data were processed

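Leaf poly(A) RNA was sequenced with DNBSEQ, per the labels' protocols. Trimmomatic, STAR, featureCounts and DESeq2 are named, without versions or roles, per the submitters' processing notes. The sources used here do not give build, annotation or strand use, so overlapping or near-identical genes stay uncertain. The values deposited by the authors are a signal: reads per gene over 1 size factor for each library (0.779 to 1.31). That was inferred from the values, of which 100% were whole multiples of the library's smallest non-zero value (tolerance 0.01 read). Among values of 2 to 11 reads 78.8% were even, as when mates are counted singly. All 36 replicate pairs differed beyond counting noise (chi-square per gene 2.61 to 5.99, at least 1.31 after halving for mates), and every library was kept.

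limma 3.58.1 (R 4.3.3, mean-variance trend) was fitted to log2(value + 1), a scale that understates changes of low genes. Either experiment was 1 fit with 6 groups and 18 libraries (residual degrees of freedom 12). Genes needed 10 or more in 3 or more libraries, and all 150 members passed. Adjustment ran over all tested genes, and p-values measure the spread between these libraries. On the recovered reads edgeR 4.0.16 called 18375 genes for 24 h against 0 h in SGT2ox and 18554 for SGT1ami, where limma called 18164 and 18448. DESeq2 1.42.0 was an alternative. The fits were also run on simulated counts with far fewer changed genes than were called here, and no outcome is given.

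The members and lists were chosen with earlier results of these data known. Named genes are the 2 with the highest score and, per comparison of the lines, up to 2 called rises and 2 called falls. Lists of genes by description could not be matched to any member. Alternatives were the pseudocount, filter, scaling, tool, groups fitted, replicate block, left-out libraries and the limits of the rule. Percentages of all tested genes called are those of the main fit. Counts under an alternative have no such share beside them.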

Additional observations from a re-analysis of the deposited data

Results flagged for a closer look

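Values are listed here where a test of the difference itself found that 2 genotypes changed differently over the same hours. No explanation is weighed, and line, experiment and the doubtful label of the libraries labelled SGT1ami at 24 h cannot be told apart in the first pair of comparisons. The change from 0 h to 24 h differed between SGT2ox and the libraries labelled SGT1ami for 74 of the 150 late-falling genes (limma). Of all 22945 tested genes 11901 were called there, so 74 is no excess. The difference was most positive for Solyc09g018490 (3.30) and Solyc04g074700 (2.29). It was most negative for Solyc08g068480.1 (-2.10) and Solyc04g064610 (-1.44). The change from 0 h to 3 h differed between SGT2ox and SGT1ami for 55 of the 150 (limma), where 11700 of all 22945 tested genes were called. It differed most positively for Solyc09g018490 (2.19) and Solyc07g150120 (1.501). The most negative differences were those of Solyc04g077380.2 (-1.51) and Solyc08g068490 (-1.23). Among 150 genes chosen in the wild type of SGT1ami alone, 69 changed differently from 0 h to 24 h in SGT2ox and its wild type. Of all tested genes 13.3% had the more negative and 10% the less negative change there. Among 149 tested genes chosen in the wild type of SGT2ox alone, 33 did so between the libraries labelled SGT1ami and their wild type. For all tested genes these shares were 15.4% and 8.11%.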

How the results depend on the processing

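No called direction was reversed. The median of the lines' difference at 3 h, which carries no call, was 0.09 with the deposited scaling, 0.04 with TMM and -0.05 with library totals. Of the counts, medians and member lists, 290 recomputed values were not counted as moved and 14 were. The limit for this was loose. Not counted were 98 calls at 3 h in SGT2ox with library totals, where the main fit gave 72. Nor were 95 in SGT1ami with only the groups compared and 54 without its replicate 1 at 0 h, where the main fit gave 68. For single genes 368 kept their call and 24 lost it, among them Solyc04g077380.2 in the lines' difference at 3 h with no filter (adjusted p = 0.053, limma). All 150 genes were called lower at 24 h than at 0 h in SGT2ox and in the libraries labelled SGT1ami under every setting, except 149 in SGT2ox without its replicate 2 at 24 h. The median change from 0 h to 24 h became -2.42, -2.71 and -2.82 in SGT2ox and -2.53, -2.78 and -3.25 in the libraries labelled SGT1ami with a pseudocount of 10, TMM scaling and library totals. At 3 h library totals gave -0.41 and -0.29. The lines' difference at 3 h was called for 85 genes when only the groups compared were fitted. The genes chosen in the wild type of SGT2ox gave 21, 22 and 6 calls between the labelled libraries and wild type at 24 h with edgeR, DESeq2 and only the groups compared. The rule kept 67 of the 150 genes with library totals and 48 with a limit of 0.25 at 3 h, which by construction admits fewer genes, and 136 to 148 when a wild type library was left out.

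The labels number replicates alike in all groups, but same-numbered libraries did not deviate together (correlations of -0.045 to 0.022 in the SGT2ox experiment and -0.033 to 0.022 in the other), and 4 and 2 of 18 libraries correlated best with their own number. With the replicate block the counts at 24 h stayed at 150 and 150, those at 3 h were 70 and 68, and the lines differed for 77 and 54 genes. Among the named genes it ended only the call of Solyc07g150120 in the difference at 3 h (adjusted p = 0.057, limma). Levels of a few reads at 24 h limit how deep a fall can be measured.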
